A study of Mus musculus with 6 samples.

Results

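The glycocalyx is the sugar-rich coat on the surface of endothelial cells, the cells that line blood and lymph vessels. The genes described here encode its proteoglycan core proteins, the enzymes that build, sulfate and trim heparan sulfate, the enzymes that make hyaluronan, and the sialomucins of the vessel surface. They are a list of 38 gene symbols taken as given and matched to the gene symbols of the deposited table, and all 38 were found among its 23793 rows, each on 1 row of its own.

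RNA was measured by sequencing in lung endothelial cells purified by flow sorting from mice of mixed strain background at postnatal day 7. There were 3 control and 3 mutant libraries, each group with replicates A, B and C, and libraries with the same letter are called a pair. This pairing was inferred from the letters in the titles and from correlated levels in these same data. The sample titles of both groups carry the names Vegfa and Shh, and the series title speaks of Vegfa from the epithelium. Neither the alleles of the groups nor the driver of any recombinase is spelled out in the labels, and the number of animals per library is not stated either. The names control and mutant are therefore used alone, and p-values set group differences against the spread between these libraries. The comparison asks which transcripts of the sorted endothelial cells differed when the lungs were mutant.

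Heparan sulfate is a long sugar chain that is started on a serine of a core protein by xylosyltransferases, lengthened by exostosins, and then sulfated at several positions by enzymes that act in turn. The sulfate pattern sets which proteins the chain binds, and the longer forms of VEGF-A are among the growth factors that bind it. On blood vessels the coat also contributes to the barrier, to the sensing of flow and to leukocyte traffic.

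Levels are FPKM values as the authors deposited them, that is, fragment numbers divided by transcript length and by library size, so levels can be set side by side between genes. Where 3 levels are given for a group, they run from replicate A to replicate C. Fragment totals are unknown, and the spacing of the lowest values gave depths from 0.897 to 1.49 times that of control A. The 12 endothelial markers summed to 6932 to 7651 FPKM in control and 5873 to 6359 FPKM in mutant libraries, and without the tight junction gene Cldn5 to 4853 to 5221 and 4624 to 5561 FPKM. Markers of Car4-high capillary cells, 9 in number, all had a lower mean in the mutant and summed to 1073 to 1233 FPKM in control and 323 to 410 FPKM in mutant libraries. Of these, Apln was at 169, 82.5 and 119 FPKM in control libraries against 25.3, 41 and 243 FPKM in mutant libraries. Its level in mutant C was thus above every control. The 14 mesenchymal markers, none at 0, summed to 578, 1988 and 1733 FPKM in control libraries and to 494, 2273 and 1044 FPKM in mutant libraries. Of the 14, 9 had a lower mean in the mutant, and groups overlapped for all. Pdgfra, Pdgfrb, Col3a1, Acta2, Tagln, Cspg4 and Postn were lower in each pair, and Mfap4, Fn1 and Lum were higher in each. At an unadjusted p under 0.05 in limma, Pdgfrb and Postn were lower (2 of 13 tested, against 4.29% of all tested rows) and 0 were higher. After adjustment 0 passed. Epithelial markers, 15 in number, summed to 38.3 to 220.1 FPKM, with Epcam and Cdh1 among 4 that were under 1 FPKM in every library. Scgb1a1 was at 5.56 to 50.8 FPKM and Ager at 9.26 to 15.4 FPKM. Sftpc was at 67.7, 145 and 38.3 FPKM in control libraries against 46.4, 29.7 and 12.3 FPKM in mutant libraries. It was lower in each pair with overlapping groups (limma, unadjusted p = 0.0449, adjusted p = 0.617). Of the 15, 9 had a lower mean in the mutant. Leukocyte markers summed to 6.90 to 42.9 FPKM. Erythroid and platelet markers, 8 in number, summed to 45.9 to 162 FPKM in control and 21.6 to 47.7 FPKM in mutant libraries. Of these 8, 7 had a lower mean in the mutant. Ppbp, Pf4, Hbb-bt and Hba-a1 were lower at an unadjusted p under 0.05 in limma (4 of 6 tested, against 4.29% of all tested rows). Of the 6, 0 passed adjustment. Xist stood under 0.1 FPKM in both libraries of pair C and at 33.3 to 57.9 FPKM in the others. Of the set, 4 genes are X-linked (Gpc3, Gpc4, Hs6st2 and Bgn). Whether their levels depend on this difference between pairs was not tested. In such sorted bulk samples, fewer cells of a type and less RNA per cell cannot be told apart.

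No gene of the set passed the test between mutant and control lungs. Of the 38 genes, 34 reached a mean of 1 FPKM and entered the limma fit on log2(FPKM + 1) over all 11693 such rows. At an adjusted p under 0.05, 0 of the 34 were called, against 0.137% of all rows, and the smallest adjusted p was 0.482. At an unadjusted p under 0.05, the glypican Gpc2 and the syndecan Sdc3 were lower (2 of 34, 5.88%, against 4.29% of all rows) and the secreted proteoglycan Esm1 was higher (1 of 34, 2.94%, against 3.81%). The median log2 fold change of the 34 genes was -0.05, beside 0.02 over all rows, and 30 of the 34 lay within 0.5 of 0 on the log2 scale. These shares are near those of all rows.

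The numbers with the pair as a block differed in size but gave no call either. With the block, 0 of the 34 genes passed after adjustment (limma, smallest adjusted p = 0.248), against 0.0513% of all rows. Unadjusted, Sdc2, Gpc2, Gpc4 and Cd34 were lower (4 of 34, 11.8%, against 6.88% of all rows), and Gpc3 and Esm1 were higher (2 of 34, 5.88%, against 5.39%). Sdc3 then stood at an unadjusted p of 0.0502 in limma. Before any model, the 3 mutant libraries lay below the 3 controls for Sdc3, Gpc2 and Podxl (3 of the 34 tested, 8.82%, against 6.57% of all rows) and above them for Esm1 (1 of 34, 2.94%, against 7.12%).

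**Figure D1:**
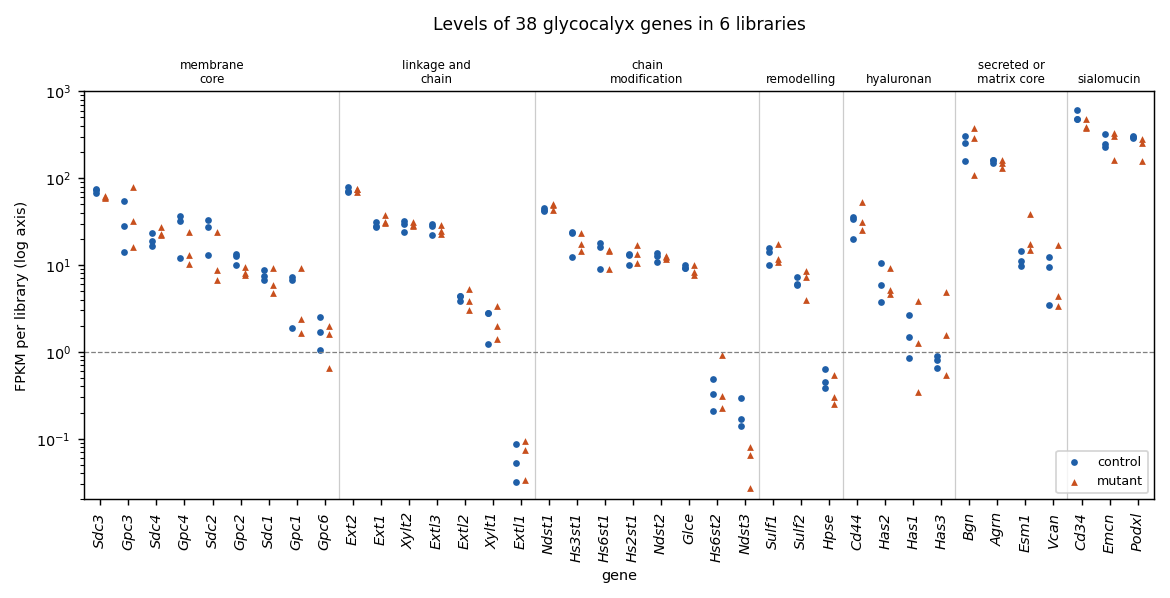
FPKM of the 38 genes on a log axis, grouped by role, with 3 control libraries as circles and 3 mutant libraries as triangles; the dashed line marks 1 FPKM. The sialomucins have the 3 highest means over all 6 libraries, 264 to 470 FPKM, and 4 genes have means under 1 FPKM.

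The starts of the 3 genes with an unadjusted p under 0.05 are shown so that their promoters can be compared. Each sequence runs from 250 bases before to 50 bases after a transcript start in RefSeq on GRCm38.p6, 5′ to 3′ on the gene's strand, with capitals at each GC box (GGGCGG, or CCGCCC on the other strand).
Gpc2, chr5:138279888-138280187, minus strand: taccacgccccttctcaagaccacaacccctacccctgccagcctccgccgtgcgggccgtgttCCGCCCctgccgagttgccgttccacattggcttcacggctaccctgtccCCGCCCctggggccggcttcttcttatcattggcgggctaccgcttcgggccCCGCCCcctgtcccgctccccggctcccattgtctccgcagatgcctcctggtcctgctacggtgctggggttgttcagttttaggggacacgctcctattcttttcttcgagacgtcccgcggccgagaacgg
Sdc3, chr4:130792287-130792586, plus strand: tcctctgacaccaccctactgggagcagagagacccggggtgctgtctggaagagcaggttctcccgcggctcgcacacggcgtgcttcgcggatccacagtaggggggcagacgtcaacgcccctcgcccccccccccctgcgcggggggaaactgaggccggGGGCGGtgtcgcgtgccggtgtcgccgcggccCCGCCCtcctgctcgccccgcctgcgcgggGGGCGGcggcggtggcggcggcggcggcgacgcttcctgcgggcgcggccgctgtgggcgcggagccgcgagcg
Esm1, chr13:113209409-113209708, plus strand: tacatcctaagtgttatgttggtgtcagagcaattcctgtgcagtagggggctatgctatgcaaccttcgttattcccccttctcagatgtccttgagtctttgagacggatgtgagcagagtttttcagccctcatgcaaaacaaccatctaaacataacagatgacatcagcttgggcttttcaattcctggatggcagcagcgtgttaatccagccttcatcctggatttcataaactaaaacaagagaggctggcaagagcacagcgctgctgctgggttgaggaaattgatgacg
The start used for Sdc3 and Esm1 is the outer end of the gene, and that for Gpc2 lies 89 bases inside it. The promoters of Gpc2 and Sdc3 held 3 GC boxes each and 65.7% and 77.7% G and C bases, and that of Esm1 held 0 GC boxes and 46.3%. The table of promoters had 32 entries for 27 of the 38 genes. A GC box was present in 62.5% of these entries and in 35.7% of all 32851 promoters of the same length. The entries of the vessel sialomucins Cd34 and Emcn were among those without a GC box, and Podxl had no entry. Searched in the same way on both strands, the ETS core CCGGAA was present in 9.38% of the entries and 14.9% of all promoters, ACGTG, the core of hypoxia elements, in 15.6% and 19.6%, TATAAA in 6.25% and 13.6%, and the AP-1 site TGACTCA in 0 entries and 5.2% of all promoters. None of these 4 was found in the 3 windows shown, so no GC box there overlapped another searched motif.

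Among the 4 syndecans, the transmembrane core proteins that carry heparan sulfate, Sdc3 stood highest. Sdc3 (chromosome 4, 130792537 to 130826318) was at 73, 66.6 and 75.1 FPKM in control libraries against 58.6, 62.3 and 60.6 FPKM in mutant libraries. All 3 mutant libraries lay below all 3 controls, and the gap was narrow. The means were 71.6 ± 4.43 (SD) and 60.5 ± 1.85 FPKM, and the log2 fold change was -0.24 ± 0.09 (SE; 95% interval -0.45 to -0.02; limma, unadjusted p = 0.0349, adjusted p = 0.593).

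Sdc4, a syndecan of focal adhesions, was at 16.4, 23.3 and 18.7 FPKM in control libraries against 22.7, 22.5 and 27.6 FPKM in mutant libraries. The groups overlapped through control B (log2 fold change 0.31 ± 0.15, limma adjusted p = 0.665). Sdc2, a syndecan also made by mesenchymal cells, was at 13.1, 27.6 and 32.7 FPKM in control libraries against 6.78, 23.7 and 8.87 FPKM in mutant libraries. It was lower in the mutant within each pair, with control A below mutant B, and its log2 fold change of -0.95 ± 0.49 was the lowest of the 34 genes (adjusted p = 0.691 in limma, 0.358 with the pair as a block). Sdc1, best known from epithelium and plasma cells, ranged from 4.74 to 9.18 FPKM over the 6 libraries and did not separate the groups.

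The glypicans, heparan sulfate cores held to the membrane by a lipid anchor, went in different directions. Gpc2 (chromosome 5, 138273657 to 138280026), a glypican known from the developing nervous system, was at 10.1, 13.3 and 12.6 FPKM in control libraries against 7.63, 9.44 and 8.16 FPKM in mutant libraries. The mutant libraries lay below all controls, and so each also lay below the control of its pair. With means of 12.0 ± 1.67 and 8.41 ± 0.931 FPKM, the log2 fold change was -0.46 ± 0.14 (95% interval -0.79 to -0.14; limma, unadjusted p = 0.0115, adjusted p = 0.482). The gene overlaps Stag3 in the annotation, which was at 0.396 to 0.517 FPKM in the 6 libraries, and no source used here says if reads were counted by strand.

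Gpc3 and Gpc4 lie side by side on the X chromosome (Gpc4 at 52051007 to 52164923, Gpc3 at 52272426 to 52613974). Gpc3, the glypican mutated in a human overgrowth syndrome, was at 14.2, 54.8 and 27.8 FPKM in control libraries against 16, 79.2 and 32.1 FPKM in mutant libraries. Each mutant was above its own control, most of all in pair B, and the groups overlapped, with mutant B above every control (log2 fold change 0.29 ± 0.65, limma adjusted p = 0.931, and 0.383 with the pair as a block). Gpc4 was at 12.2, 32.5 and 36.6 FPKM in control libraries against 10.2, 24.2 and 13 FPKM in mutant libraries, lower within each pair (-0.69 ± 0.46, adjusted p = 0.756, and 0.375 with the block). Gpc1 ranged from 1.66 to 9.13 FPKM and Gpc6 from 0.651 to 2.49 FPKM, both with overlapping groups.

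**Figure D2:**
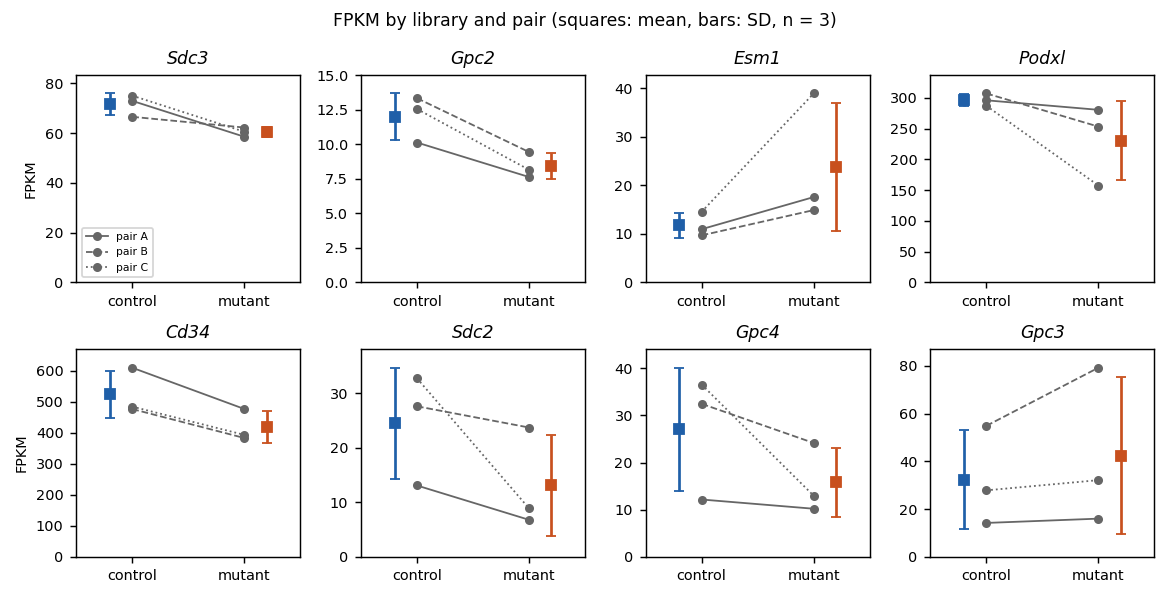
FPKM of 8 genes in each library, with lines joining control and mutant of pairs A, B and C, and squares and bars giving the mean and SD of each group (n = 3). Sdc3, Gpc2 and Podxl have all mutant values below all controls, Esm1 has all above, and Sdc2, Gpc4, Cd34 and Gpc3 overlap between groups. Each pair goes one way in these overlapping genes, and also in Gpc6 and Ndst1, which are not drawn. The share of all rows in which each pair goes one way was not counted.

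None of the enzymes that start and lengthen the chain had a called difference. Xylt2, which with Xylt1 adds the first sugar, was at 24, 32.4 and 29.7 FPKM in control libraries against 28.1, 31.3 and 29 FPKM in mutant libraries. Xylt1 was lower throughout, between 1.24 and 3.39 FPKM. Ext2, a subunit of the polymerase that extends the chain, was at 69.9, 71.2 and 79.8 FPKM in control libraries against 70.1, 75.2 and 75.6 FPKM in mutant libraries. The highest library of Ext2 was 1.14 times the lowest, the narrowest spread of the set, and the 95% interval of its log2 fold change ran from -0.22 to 0.23 around 0.00.

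Ext1, the partner of Ext2, was at 28.2, 27.6 and 31 FPKM in control libraries against 31.2, 37.4 and 30.7 FPKM in mutant libraries. The groups overlapped (log2 fold change 0.18 ± 0.11, 95% interval -0.08 to 0.45; limma adjusted p = 0.721). Extl3, an exostosin-like transferase that begins the heparan sulfate repeat, was at 22, 29.3 and 28.2 FPKM in control libraries against 22.7, 28.9 and 24.7 FPKM in mutant libraries. Extl2 stayed between 3.02 and 5.33 FPKM, and Extl1 stood under 0.1 FPKM in every library and was not tested.

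The enzymes that modify the chain showed no called difference either. Ndst1, which replaces acetyl groups with sulfate and so opens the way for the later enzymes, was at 42, 43.3 and 45 FPKM in control libraries against 42.9, 48.9 and 49.8 FPKM in mutant libraries. Ndst2, its close relative, was at 10.7, 12.8 and 13.6 FPKM in control libraries against 12.5, 12.4 and 11.7 FPKM in mutant libraries. Both sets of libraries overlapped, with log2 fold changes of 0.11 ± 0.10 for Ndst1 and -0.01 ± 0.11 for Ndst2 (limma adjusted p of 0.80 and 0.986). Glce, the epimerase that turns glucuronic into iduronic acid, ranged from 7.66 to 10.1 FPKM. It holds the microRNA gene Mir5133, for which the table gives 99452 FPKM in control A and 0 elsewhere, while Glce stood at 9.26 FPKM in control A.

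Hs2st1, which sulfates the iduronic acid, was at 10.1, 13 and 13.4 FPKM in control libraries against 10.6, 17 and 13.3 FPKM in mutant libraries. Hs3st1, whose product site binds antithrombin, was at 12.4, 23.7 and 23.6 FPKM in control libraries against 17.3, 14.5 and 23.6 FPKM in mutant libraries. Hs6st1, a 6-O-sulfotransferase, was at 8.95, 16.2 and 17.8 FPKM in control libraries against 9.1, 15 and 14.5 FPKM in mutant libraries. In each of the 3 the groups overlapped, and the libraries of a group differed by more than the group means. Hs6st2 and Ndst3 had means under 1 FPKM and were not tested; Ndst3 was at 0.17, 0.141 and 0.297 FPKM in control libraries against 0.0648, 0.0268 and 0.0815 FPKM in mutant libraries, with every mutant below every control.

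The enzymes that edit the finished chain outside the cell were Sulf1, Sulf2 and Hpse. Sulf1, a sulfatase that removes 6-O-sulfate, was at 10.1, 15.9 and 14 FPKM in control libraries against 10.8, 17.7 and 11.8 FPKM in mutant libraries. Its log2 fold change was 0.00 ± 0.22 (95% interval -0.53 to 0.54). Sulf2 ranged from 3.98 to 8.46 FPKM with overlapping groups, and heparanase, Hpse, which cuts the chain, ranged from 0.253 to 0.637 FPKM and was not tested.

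**Figure D3:**
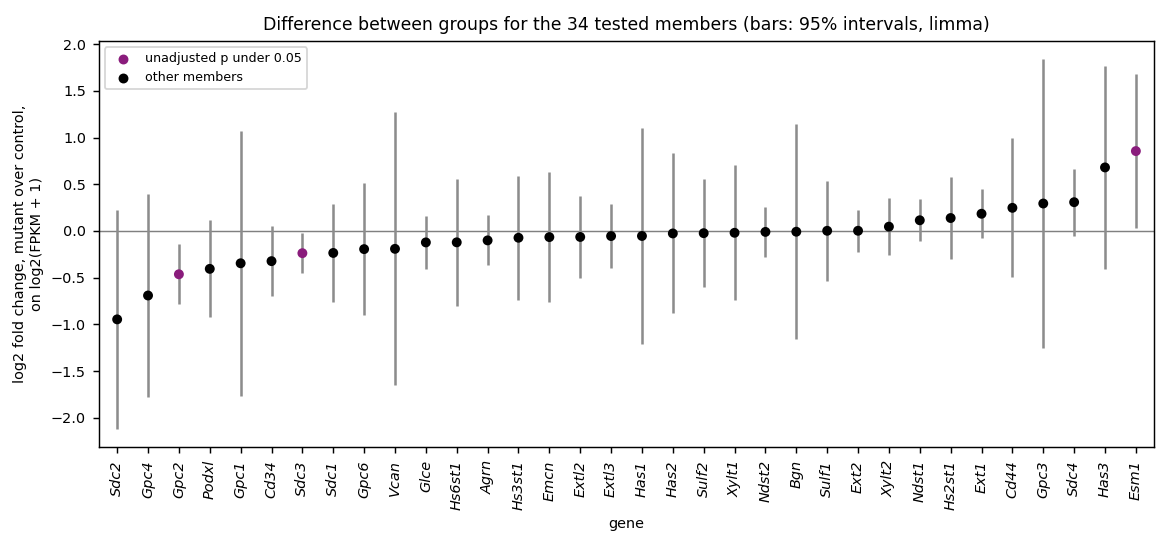
Log2 fold changes (mutant over control, on log2(FPKM + 1)) of the 34 tested genes with 95% intervals from limma, ordered by size; coloured points have an unadjusted p under 0.05. The intervals of Gpc2, Sdc3 and Esm1 do not reach 0, and Sdc3, Ndst1, Ext2 and Ext1 have the narrowest intervals.

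Hyaluronan is a chain without a core protein, made at the cell surface by 3 synthases and bound by Cd44. Has2, the main synthase of mesenchyme and endocardium in development, ranged from 3.78 to 10.4 FPKM in controls and from 4.62 to 9.35 FPKM in mutants. Has3 was at 0.646, 0.814 and 0.9 FPKM in control libraries against 1.57, 0.539 and 4.9 FPKM in mutant libraries, so its higher mutant mean rested on mutants A and C (log2 fold change 0.68 ± 0.46, limma adjusted p = 0.76). Has1 ranged from 0.349 to 3.9 FPKM, an 11.2-fold span and the widest among the tested genes. Cd44 was at 20.2, 33.7 and 36.1 FPKM in control libraries against 25.1, 31.7 and 52.5 FPKM in mutant libraries, with overlapping groups.

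Of the secreted cores, Esm1 (chromosome 13, 113209659 to 113218104) had the highest log2 fold change of the set. It encodes endocan, a small dermatan sulfate proteoglycan of endothelial tip cells that is known to be induced by VEGF. Its level was 11, 9.71 and 14.6 FPKM in control libraries against 17.6, 14.9 and 39 FPKM in mutant libraries. Every mutant lay above every control, with mutant B barely above control C and mutant C far above the rest. The annotation places the non-coding gene Gm41069 over part of Esm1. The means were 11.8 ± 2.52 and 23.8 ± 13.2 FPKM and the log2 fold change 0.86 ± 0.35 (95% interval 0.03 to 1.68; limma, unadjusted p = 0.0432, adjusted p = 0.615). Mutant C set much of its size: without it the log2 fold change was 0.45 ± 0.19 (unadjusted p = 0.0573 in limma).

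Bgn, biglycan, a small matrix proteoglycan, was at 156, 256 and 309 FPKM in control libraries against 109, 291 and 382 FPKM in mutant libraries. Both the lowest and the highest library of Bgn were mutants, and its log2 fold change was -0.01 ± 0.48. Agrn, agrin, a heparan sulfate proteoglycan of basement membranes, was at 148, 163 and 161 FPKM in control libraries against 160, 149 and 132 FPKM in mutant libraries. Agrn was even across the libraries, the highest 1.24 times the lowest. Vcan, versican, a large chondroitin sulfate proteoglycan that binds hyaluronan, ranged from 3.44 to 12.3 FPKM in controls and from 3.33 to 16.9 FPKM in mutants.

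The sialomucins, which carry sialic acid on the vessel surface, had the 3 highest means over all 6 libraries, although in the mutants the mean of Bgn (261 FPKM) was above that of Podxl (231 FPKM). Cd34 was at 609, 476 and 484 FPKM in control libraries against 476, 383 and 393 FPKM in mutant libraries. It was lower in the mutant in every pair, and mutant A reached the level of control B. The log2 fold change was -0.32 ± 0.16 (95% interval -0.70 to 0.06; limma adjusted p = 0.667, and 0.39 with the pair as a block). Podxl, podocalyxin, a relative of Cd34, was at 296, 307 and 287 FPKM in control libraries against 281, 253 and 158 FPKM in mutant libraries. All mutants lay below all controls, by a small step in mutant A and a larger one in mutant C (-0.41 ± 0.22, adjusted p = 0.698). Emcn, endomucin, a marker of veins and capillaries, was at 325, 249 and 228 FPKM in control libraries against 304, 160 and 331 FPKM in mutant libraries, with overlapping groups (-0.07 ± 0.29, adjusted p = 0.967). The endothelial markers named above, with and without Cldn5, are the values to set beside these 3 genes, and their part in the differences was not tested.

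Part of the spread within groups followed the same 3 libraries. In 12 of the 34 tested genes (35.3%), control A, mutant A and mutant C were the 3 lowest libraries, against 12.8% of all tested rows and 9 of the 14 mesenchymal markers. These 12 were Sdc1, Sdc2, Gpc1, Gpc4, Xylt1, Xylt2, Extl2, Extl3, Hs6st1, Sulf1, Has1 and Vcan. The same 3 libraries were lowest for 4 of the 5 mesothelial markers, which summed to 12.7 to 53.9 FPKM, and for 3 of the 15 epithelial markers. The trio of libraries was chosen after levels had been seen, so the share is a description. The highest library of Vcan was 5.06 times the lowest, of Gpc1 5.49 times and of Sdc2 4.83 times, whereas for Xylt2 and Extl3 it was 1.35 and 1.33 times. The part of mesenchymal or mesothelial RNA in the levels of the 12 genes was not tested.

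**Figure D4:**
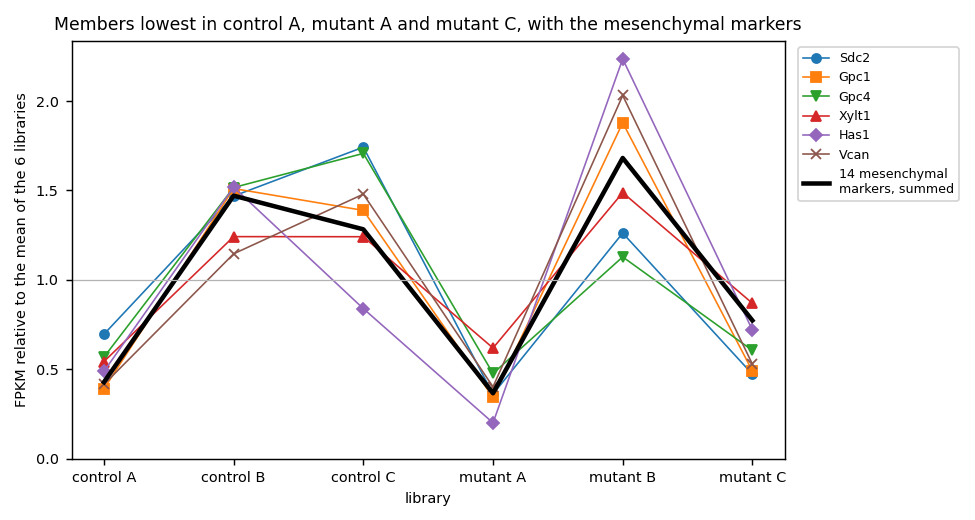
FPKM of 6 genes in each library divided by the gene's mean over the 6 libraries, with the summed FPKM of 14 mesenchymal markers as the thick line (494 to 2273 FPKM). The 6 genes were picked from the 12 tested genes with control A, mutant A and mutant C as their lowest 3 libraries. That they share this pattern was therefore fixed by the choice. Others of the 12 with less spread, such as Xylt2 and Extl3, are not drawn. The same 3 libraries are lowest for the summed markers.

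The wider pathway was read from 6 further gene lists with 61 tested genes, of which 0 passed in limma after adjustment, with or without the pair as a block. At an unadjusted p under 0.05 in the fit without the block, 3 were lower and 3 were higher (4.92% each, against 4.29% and 3.81% of all rows), and the median log2 fold change of the 61 was -0.02. With the block, 6 were lower (Spock2, Hyal1, Hyal2, Cemip, Cspg4 and Chpf; 9.84%, against 6.88% of all rows) and 4 were higher (Hspg2, Col18a1, Clec14a and Tnfaip6; 6.56%, against 5.39%). All mutants lay below all controls in 6 of the 61 (Spock2, Hyal1, Hyal2, Nrp1, Gusb and Glb1; 9.84%, against 6.57% of all rows) and above them in 3 (Hspg2, Col18a1 and Clec14a; 4.92%, against 7.12%). In limma without the block, 0 of the 10 tested genes of linkage and precursor synthesis had an unadjusted p under 0.05. The same held for the 8 lysosomal enzymes of heparan sulfate breakdown and the 15 enzymes of chondroitin and dermatan sulfate. The median log2 fold changes were -0.04, -0.07 and -0.09 in that order.

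Without the block, the 6 genes at the unadjusted threshold were 3 other cores, 2 enzymes of hyaluronan breakdown and 1 surface lectin. Col18a1, the collagen core that carries heparan sulfate in basement membranes, stood at 23 ± 3.9 and 35.9 ± 3.04 FPKM in control and mutant (log2 fold change 0.63 ± 0.14, limma adjusted p = 0.314). Hspg2, perlecan, was at 47.5, 55.1 and 58.8 FPKM in control libraries against 78.1, 91.2 and 215 FPKM in mutant libraries, so that every mutant lay above every control and mutant C far above the rest (1.09 ± 0.36, adjusted p = 0.546). Clec14a, an endothelial lectin of the surface, was at 225 ± 33.8 and 326 ± 67 FPKM (0.52 ± 0.20, adjusted p = 0.593). Hyal2, the hyaluronidase anchored on the surface, was at 141 ± 9.88 and 111 ± 8.9 FPKM (-0.34 ± 0.11, adjusted p = 0.545). Hyal1, its lysosomal relative, was at 27 ± 6.54 and 16.2 ± 1.79 FPKM (-0.68 ± 0.19, adjusted p = 0.47) on a row joined with Nat6, so its value is uncertain. Spock2, a proteoglycan also made by alveolar type 1 cells, averaged 3.26 ± 0.664 FPKM in control and 1.67 ± 0.255 FPKM in mutant (-0.67 ± 0.17, adjusted p = 0.43).

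The other genes of lowest p in each list had smaller or more variable differences, and none was called. Nrp1, a VEGF co-receptor that can carry a sugar chain, was at 215 ± 18.5 and 184 ± 15.0 FPKM in control and mutant, on a row joined with Mir1903 (log2 fold change -0.22 ± 0.12, limma adjusted p = 0.698). In precursor supply, the log2 fold changes were 0.22 for Ugdh, 0.14 for Uxs1, -0.19 for Slc35b2 and -0.16 for Papss1. Among lysosomal enzymes they were -0.17 for Gusb, -0.14 for Glb1 (a row joined with Tmppe), -0.12 for Ids and -0.14 for Idua. Among chondroitin and dermatan sulfate enzymes they were 0.44 for Chst15, 0.44 for Chst7, -0.23 for Chst14 and 0.20 for Dsel. Tnfaip6, which links hyaluronan to other proteins, and Cemip, which helps to break hyaluronan down, had 0.75 ± 0.37 and -0.72 ± 0.42 with overlapping groups. Cd93, Pdpn and Podxl2, further surface glycoproteins, had 0.21, 0.14 and -0.18.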

How the data were processed

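The authors deposited 1 table of FPKM values for 6 libraries (3 control, 3 mutant), with a gene symbol per row. Per the labels' protocols, 76-nt read pairs were aligned to mm10. The submitters' processing notes name Cufflinks 2.2.1 with Cuffdiff, Bowtie2 2.2.3 and TopHat2 2.0.14. The unit was read from the values and these tools. Strand use in counting was not found in the labels. Fragment counts were lacking, so count models were not applied.

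Gene symbols were matched to rows, including rows that join several symbols. Values were transformed to log2(FPKM + 1) and fitted with limma 3.58.1 in R 4.3.3, using an empirical Bayes trend. Rows entered the fit at a mean of 1 FPKM or more, which left 11693, and p-values were adjusted by Benjamini-Hochberg over them, with a threshold of 0.05. The transformation understates differences of low genes. Level errors are SDs of 3 libraries, and fold change errors are SEs. The code was tested on simulated data. Relative depth was the commonest ratio to control A among values under 0.1 FPKM.

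The main fit had no block. Same-letter libraries had correlated deviations from their group means (r = 0.36 in pair A, 0.27 in pair B, 0.19 in pair C), each past 0.1, so the letters in the titles were taken as pairs. Of the 38 genes, values are given per library for those with groups apart, an unadjusted p under 0.05 in either fit or a mean of at least 10 FPKM, and up to 4 genes of lowest p are named per further list.

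The genes and lists were chosen with earlier results of these data known. Promoters and positions come from RefSeq on GRCm38.p6, the build also called mm10. In that annotation 17 of the 38 genes overlap another gene, so their values are less certain.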

Additional observations from a re-analysis of the deposited data

How the results depend on the processing

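The count of called genes was 0 of the set, and 0 of the 61 further genes, under all 15 alternatives: other pseudocounts, filters and scalings, no variance trend, the pair as a replicate block, pairs B and C alone, and each library left out. The median log2 fold change of the set lay between -0.20 and 0.05. Unadjusted counts were small and moved: the genes lower were 2, with 4 under the replicate block and 1 to 3 with a library left out (1 without control C). Those higher were 1, with 2 under the replicate block, 0 without the filter on low values, 0 in pairs B and C alone, and 0 to 2 with a library left out (0 without control A or mutant C, 2 without mutant B). Gpc2 kept an unadjusted p between 0.00382 and 0.0449 under all 15, while Sdc3 was under 0.05 in 9 and Esm1 in 10, with log2 fold changes of -0.29 to -0.20 and 0.45 to 1.11. Esm1 was above 0.05 without the filter, in pairs B and C alone, and without control A, control B or mutant C. Sdc3 was above it with the replicate block, in pairs B and C alone, and without control A, control C, mutant A or mutant B. The cause of these losses was not tested. Of the genes under 0.05 with the block but not in the main fit, Sdc2 and Gpc4 were under it in 3 of the 15 alternatives. Cd34 and Gpc3 were under it in 1, the replicate block itself. The log2 fold change of Gpc3 ran from -0.29 to 0.83 and was below 0 without control A and without mutant B. The log2 fold change kept its sign under all 15 for 14 of the 34 genes, and for the other 20, none of them called, it changed sign in at least 1; Ext2 did so in 6 and Sulf1 in 5. Depth in fragments is unknown, so no counting error could be given.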

Other observations

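Of the 29 genes of the set and the further lists with a mean under 1 FPKM, all mutants lay below all controls in 3 (Ndst3, Ndst4 and Spn; 10.3%) and above them in 1 (Madcam1; 3.45%). Among all 6126 rows with a mean above 0 and under 1 FPKM the shares were 3.87% and 3.28%. Unlike those rows, the 29 genes include Gpc5 and Glycam1, which were at 0 in every library. Ndst4, which like Ndst3 replaces acetyl groups on heparan sulfate with sulfate, was at 0.133, 0.206 and 0.148 FPKM in control libraries against 0.0807, 0.0279 and 0.0635 FPKM in mutant libraries. Spn, a leukocyte sialomucin, was at 0.633, 0.518 and 0.449 FPKM in control libraries against 0.415, 0.375 and 0.165 FPKM in mutant libraries. Madcam1, a vessel addressin, was at 0.0505, 0 and 0 FPKM in control libraries against 0.161, 0.113 and 0.273 FPKM in mutant libraries. In the limma fit without the filter on low values the adjusted p was 0.609 for Ndst3 and 0.559 for Ndst4, on a scale where a pseudocount of 1 understates differences at such levels. These genes were singled out after their values were seen.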
